A study of Mus musculus with 6 samples.

Results

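The genes described here encode the signalling adaptors that act below the IL-1 receptor family: Myd88, the kinases and pseudokinases Irak1, Irak2, Irak3 and Irak4, the inhibitor Tollip, the kinase Map3k7 (TAK1) and its binding partners Tab1, Tab2 and Tab3. They were chosen by symbol, and all 10 were found among the 53278 genes of the table. RNA was sequenced from type-2 innate lymphoid cells (ILC2s) sorted from the visceral adipose tissue of C57BL/6 mice of 8 weeks. All mice had received 3 intraperitoneal injections of 1 µg recombinant mouse IL-33, and all sorted cells were then kept with IL-2 (10 ng/mL) and IL-7 (10 ng/mL). The 3 libraries of the treated group came from cells given DTA-1 (5 µg/mL), an agonistic antibody to the costimulatory receptor GITR, and the 3 libraries of the control group from cells given the isotype control antibody. The control libraries are titled isotype, while the headers of the deposited counts name them PBS-GITR. The labels give 48 h of culture, and the sources differ on this time. Both groups had therefore met IL-33 in the animal and the labels list none in the dish, so the comparison asks what GITR engagement adds. The cells were gated as lineage-negative CD45+ ST2+ CD117+, so the gene of the IL-33 receptor ST2 was part of the sort. Among the markers that defined the lineage gate were FCεRI, CD11b, CD11c and CD3ε, and cells bearing them were left out. The labels do not say whether the libraries of a group came from separate animals or cultures, and the p-values measure only the spread between these libraries.

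IL-33 binds ST2 (Il1rl1), which pairs with the accessory chain Il1rap. The intracellular TIR domains of this pair recruit MyD88, which nucleates the Myddosome by binding IRAK4 and then IRAK1 or IRAK2. The IRAKs engage the ubiquitin ligase TRAF6, whose ubiquitin chains are bound by TAB2 and TAB3 and bring in TAK1 together with its activator TAB1. TAK1 then switches on the IKK complex and the MAP kinases. IRAK-M (Irak3) and Tollip restrain the pathway. ILC2s depend on this route for their response to IL-33, whereas GITR belongs to the TNF receptor family and signals through TRAF proteins to NF-κB without MyD88.

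The IRAK genes fall into active kinases and pseudokinases, and the difference can be read from their coding sequence. Shown is the stretch of 12 codons that begins the catalytic loop, taken from GENCODE mouse release 21 transcripts (GRCm38), with the codon at the place of the catalytic aspartate in capitals.
Irak4: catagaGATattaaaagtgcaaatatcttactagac
Irak1: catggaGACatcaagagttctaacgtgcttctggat
Irak2: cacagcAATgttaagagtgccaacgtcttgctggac
Irak3: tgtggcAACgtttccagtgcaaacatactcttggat
Irak4 and Irak1 carry an aspartate codon at this place, and Irak2 and Irak3 an asparagine codon. In all 4 genes the stretch crosses the boundary from exon 8 to exon 9. In Irak4 (plus strand) it lies at chr15:94558862-94558878 and chr15:94561446-94561464. In Irak1 (minus strand) it lies at chrX:74020943-74020959 and chrX:74020517-74020535. In Irak2 (plus strand) it lies at chr6:113676680-113676696 and chr6:113678647-113678665, and in Irak3 (minus strand) at chr10:120165093-120165109 and chr10:120146611-120146629. Over the 36 bases Irak4 shared 26 with Irak2, 23 with Irak1 and 19 with Irak3. The counts are per gene and do not separate transcripts of one gene.

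The libraries held 30569351 to 35131329 expected counts. The library labelled DTA-1 replicate 1 stood apart from its group. The chi-square of the counts of a pair of libraries, divided by its degrees of freedom and near 1 for counting noise alone, was 10.1 to 11.9 between this library and the isotype libraries and 29.0 and 30.5 between it and DTA-1 replicates 2 and 3. The same measure was 12.04 to 18.36 among the isotype libraries and 11.92 between DTA-1 replicates 2 and 3. It was 28.72 to 41.68 between these 2 replicates and the isotype libraries. By this measure DTA-1 replicate 1 lay about as near the isotype libraries as these lay to each other. Its values were the lower ones, with 11.92 against 12.04 at the closest. The measure grows with depth and this library had the fewest counts, so such a small margin cannot be interpreted. Why this library stood apart from its group was not tested. Fold changes of the adaptors are therefore given with and without DTA-1 replicate 1. This library was singled out from the same counts, so p-values without it are descriptive and are no test of the treatment. Normalized counts below are the deposited counts scaled to CPM with TMM factors. The ILC2 list summed to 11100 to 11600 normalized counts in isotype and 11800 to 15800 in DTA-1, the largest part from Il5 (5060 to 9690). Within it Gata3 was at 1520 to 1720, Il1rl1, whose product was part of the sort, at 1022 to 1286, and Il13 at 64.0 to 108. Kit was at 98.8 to 129 in isotype, 128 in DTA-1 replicate 1, and 75.8 and 80.8 in DTA-1 replicates 2 and 3. In the same order Icos was at 156 to 173, 157, and 99.0 and 98.4. In DTA-1 replicates 2 and 3, Gata3, Il1rl1, Kit and Icos lay below every isotype library, and Il5, Il13 and Id2 lay above. Of the macrophage markers, 6 of 8 were under 1 normalized count in all libraries, C1qb was at 0, and the summed level was 6.44 to 12.2 in isotype and 8.67 to 11.9 in DTA-1. The neutrophil list was nearly empty, with 4 of its 5 genes (S100a8, S100a9, Camp and Ngp) at 0. The adipocyte list summed to at most 0.032 in any library. The T cell list, with Cd8a at 0, summed to 40.9 to 54.1 in isotype and 47.6 to 51.3 in DTA-1, most of it Cd3g. The fibroblast list summed to 2.20 to 8.39 in isotype and 0 to 3.98 in DTA-1. The mast cell list, none of whose 5 genes was at 0 throughout, summed to 15.1 to 21 in isotype, 15.7 in DTA-1 replicate 1, and 44.4 and 32.2 in DTA-1 replicates 2 and 3. In such bulk libraries fewer cells of one type and less RNA per cell cannot be told apart. 

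Levels of different genes were compared as normalized counts per kilobase of exon, averaged over the 6 libraries. Myd88 stood highest at 42.3, above 89.5% of the genes tested, and its lowest library (39.6) lay above the highest library of any other adaptor. Irak1 (25.1), Tollip (23.1), Irak2 (20.3) and Map3k7 (16.9) followed, and the libraries of each of these overlapped those of the next. The 5 genes from Myd88 to Map3k7 were separated from the rest by a gap of 1.89-fold between Map3k7 and Tab1. A lower group held Tab1 (8.90), Tab2 (8.17), Irak4 (7.64) and Irak3 (6.69), whose libraries also overlapped from one gene to the next. Tab3 was lowest at 0.944, which is 7.09-fold below Irak3 and 44.8-fold below Myd88, and lay above 25.2% of the genes tested. Per kilobase Tab2 therefore exceeded Tab3, its close relative, by 6.50-fold to 12.1-fold in the 6 libraries. Irak2 exceeded Irak4 by 2.05-fold to 3.73-fold. With the length of the longest coding transcript in place of all exons, an alternative chosen after the data were seen, the order changed only among Tab1, Tab2 and Irak4, where Tab2 (11.4) then stood above Irak4 (11.2) and Tab1 (10.1).
Upstream of the adaptors, on the scale of all exons, Il1rl1 stood at 166 and its partner Il1rap at 1.05, in the range of Tab3. The likeness to Tab3 depended on the length used. With the longest coding transcript Il1rap stood at 2.64 and Tab3 at 0.985. Sigirr, an inhibitory receptor of the family, was at 46.6 and Il18rap at 14.8. The ubiquitin ligase gene Traf6 was at 5.20, below Irak3.

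**Figure D1:**
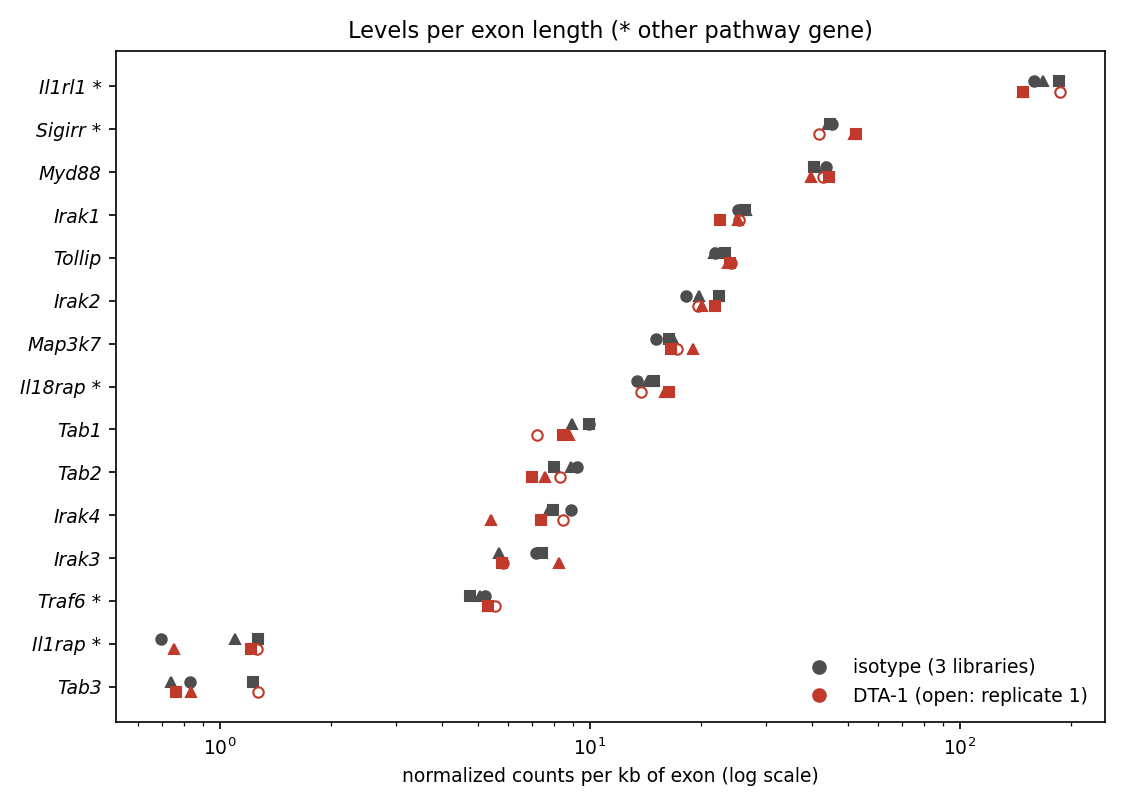
Normalized counts per kilobase of exon (log axis) for the 10 adaptor genes and, marked with a star, 5 other genes of the pathway. Each point is a library: grey for isotype, red for DTA-1, with circle, square and triangle for replicates 1, 2 and 3 and the open circle for DTA-1 replicate 1. Myd88 lies highest among the adaptors at 42.3 and Tab3 lowest at 0.944, and Il1rl1 lies above all of them at 166.

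The adaptor Myd88, the entry point of the pathway (chr9:119335934-119341411), had 112, 104 and 112 normalized counts in the isotype libraries and 109.9, 114 and 102 in the DTA-1 libraries. The groups overlapped almost fully, with means of 109 ± 4.42 and 109 ± 6.27 (SD, n = 3 each). For Myd88 the log2 fold change was −0.007 (standard error 0.07, 95% interval −0.165 to 0.151, edgeR adjusted p = 0.991). It was −0.016 without DTA-1 replicate 1. Myd88 shares 290 bases of exon with Acaa1a on the other strand, and whether strand was used in counting is not given in the sources used here. Acaa1a had 103 ± 8.58 and 99.2 ± 11.5 normalized counts.

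Irak4, the kinase that starts phosphorylation in the Myddosome (chr15:94543643-94581815), varied more. It had 44.6, 39.95 and 38.9 normalized counts in isotype and 42.4, 37.0 and 27.1 in DTA-1. DTA-1 replicates 2 and 3 lay below every isotype library, and DTA-1 replicate 1 lay among them. Over all libraries the log2 fold change was −0.21 (standard error 0.15, 95% interval −0.54 to 0.11, edgeR adjusted p = 0.781). Without DTA-1 replicate 1 it was −0.36 (95% interval −0.68 to −0.045), with an unadjusted p of 0.0291 and an edgeR adjusted p of 0.286, and without DTA-1 replicate 3 it shrank to −0.052. Irak4 shares 395 bases of exon with Twf1 on the other strand. In DTA-1 replicate 3, where Irak4 was lowest, Twf1 had 54.0 normalized counts, and its log2 fold change over all libraries was 0.041.
Irak1, the kinase that IRAK4 phosphorylates (chrX:74013914-74023918), had 119, 124 and 125 normalized counts in isotype and 119, 106 and 119 in DTA-1. Replicate 2 of DTA-1 was the lowest library, and the groups overlapped. Between the groups the log2 fold change was −0.09 (95% interval −0.25 to 0.06, edgeR adjusted p = 0.808) and −0.12 without DTA-1 replicate 1.

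Irak2, the pseudokinase that sustains signalling late after stimulation (chr6:113638467-113695026), had 80.6, 98.5 and 87.0 normalized counts in isotype and 86.5, 96.0 and 88.9 in DTA-1. All DTA-1 libraries lay within the isotype range. This corresponds to a log2 fold change of 0.03 (95% interval −0.16 to 0.22, edgeR adjusted p = 0.962), or 0.06 without DTA-1 replicate 1. Irak2 shares 196 bases of exon with Gm43963 on the other strand, which had under 2 normalized counts in each library.
Irak3 encodes IRAK-M, which holds back release of signal from the Myddosome (chr10:120141648-120202130). It had 26.3, 27.3 and 20.9 normalized counts in isotype and 21.4, 21.3 and 30.3 in DTA-1. The highest of the 6 libraries was DTA-1 replicate 3 and the other DTA-1 libraries lay near the lowest isotype library, so the spread within DTA-1 exceeded the difference between the means. For Irak3 the log2 fold change was −0.03 (95% interval −0.38 to 0.33, edgeR adjusted p = 0.982) and 0.06 without DTA-1 replicate 1. Irak3 shares 192 bases of exon with Tmbim4 on the other strand, which was at 118 ± 6.52 and 121 ± 3.15 normalized counts.
DTA-1 replicate 3 thus held the lowest Irak4 and the highest Irak3 of the series. The ratio of Irak3 to Irak4 per kilobase was 1.53 there and 0.690 to 0.932 in the other 5 libraries. The macrophage list summed to 11.4 in this library, within the range of the others. Its genes Csf1r (0.471) and Mrc1 (0.502) were highest there, and C1qa (0.0627) and C1qc (0.0314) were counted only there. Cd68, Adgre1 and Lyz2 were each higher in another library. The part of macrophages in the Irak3 value was not tested.

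Tollip encodes a ubiquitin-binding protein that dampens IRAK1 activity (chr7:141874813-141918507). It had 111, 118 and 109.6 normalized counts in isotype and 122, 121 and 119.6 in DTA-1. Every DTA-1 library lay above every isotype library, by a small step, with means of 113 ± 4.41 and 121 ± 1.17 (SD, n = 3 each). For Tollip the log2 fold change was 0.10 (95% interval −0.04 to 0.24, edgeR adjusted p = 0.764) and 0.09 without DTA-1 replicate 1.

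In the TAK1 complex the kinase gene Map3k7 (chr4:31964097-32023467) had 97.2, 105.5 and 108 normalized counts in isotype and 111, 107 and 122 in DTA-1. The groups overlapped through DTA-1 replicate 2. For Map3k7 the log2 fold change was 0.13 (95% interval −0.04 to 0.30, edgeR adjusted p = 0.748) and 0.14 without DTA-1 replicate 1.
Tab1, the TAK1 activator (chr15:80133154-80161701), had 33.4, 33.6 and 30.1 normalized counts in isotype and 24.3, 28.4 and 29.6 in DTA-1. Every DTA-1 library lay below every isotype library. Its log2 fold change of −0.24 (standard error 0.11, 95% interval −0.48 to 0.008) had the smallest p of the 10 genes, 0.0562 before and 0.698 after adjustment by edgeR. The lowest value came from DTA-1 replicate 1, the library that otherwise lay near isotype, and without it the log2 fold change was −0.16 (edgeR adjusted p = 0.570).
Tab2, which binds ubiquitin chains (chr10:7905653-7956230), had 56.8, 49.0 and 54.6 normalized counts in isotype and 50.9, 42.9 and 46.4 in DTA-1. DTA-1 replicates 2 and 3 lay below all isotype libraries. The log2 fold change was −0.195 (95% interval −0.41 to 0.02, edgeR adjusted p = 0.722), and without DTA-1 replicate 1 it was −0.26 with an unadjusted p of 0.0269 and an edgeR adjusted p of 0.277.
Tab3, the second ubiquitin-binding partner (chrX:85574022-85634469), had 158 to 286 expected counts per library. Its normalized counts were 5.51, 8.15 and 4.90 in isotype and 8.41, 5.06 and 5.55 in DTA-1. One library of each group, isotype replicate 2 and DTA-1 replicate 1, was well above the others. The log2 fold change was 0.035 (95% interval −0.55 to 0.62, edgeR adjusted p = 0.987) and −0.22 without DTA-1 replicate 1.
Per kilobase Tab1 was 0.535 to 0.657 of Map3k7 in isotype and 0.420 to 0.509 in DTA-1, and Tab2 was 0.487 to 0.612 of Map3k7 in isotype and 0.398 to 0.482 in DTA-1. These ratios combine the values given above and were not tested. Each sets a gene with a log2 fold change below 0 over one above 0, which widens the step. Irak3 was 0.215 to 0.284 of Irak1 in isotype and 0.230 to 0.327 in DTA-1. Tollip was 0.500 to 0.575 of Myd88 in isotype and 0.539 to 0.597 in DTA-1, so these 2 ratios overlapped. How often ratios of other gene pairs lie apart was not examined.

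**Figure D2:**
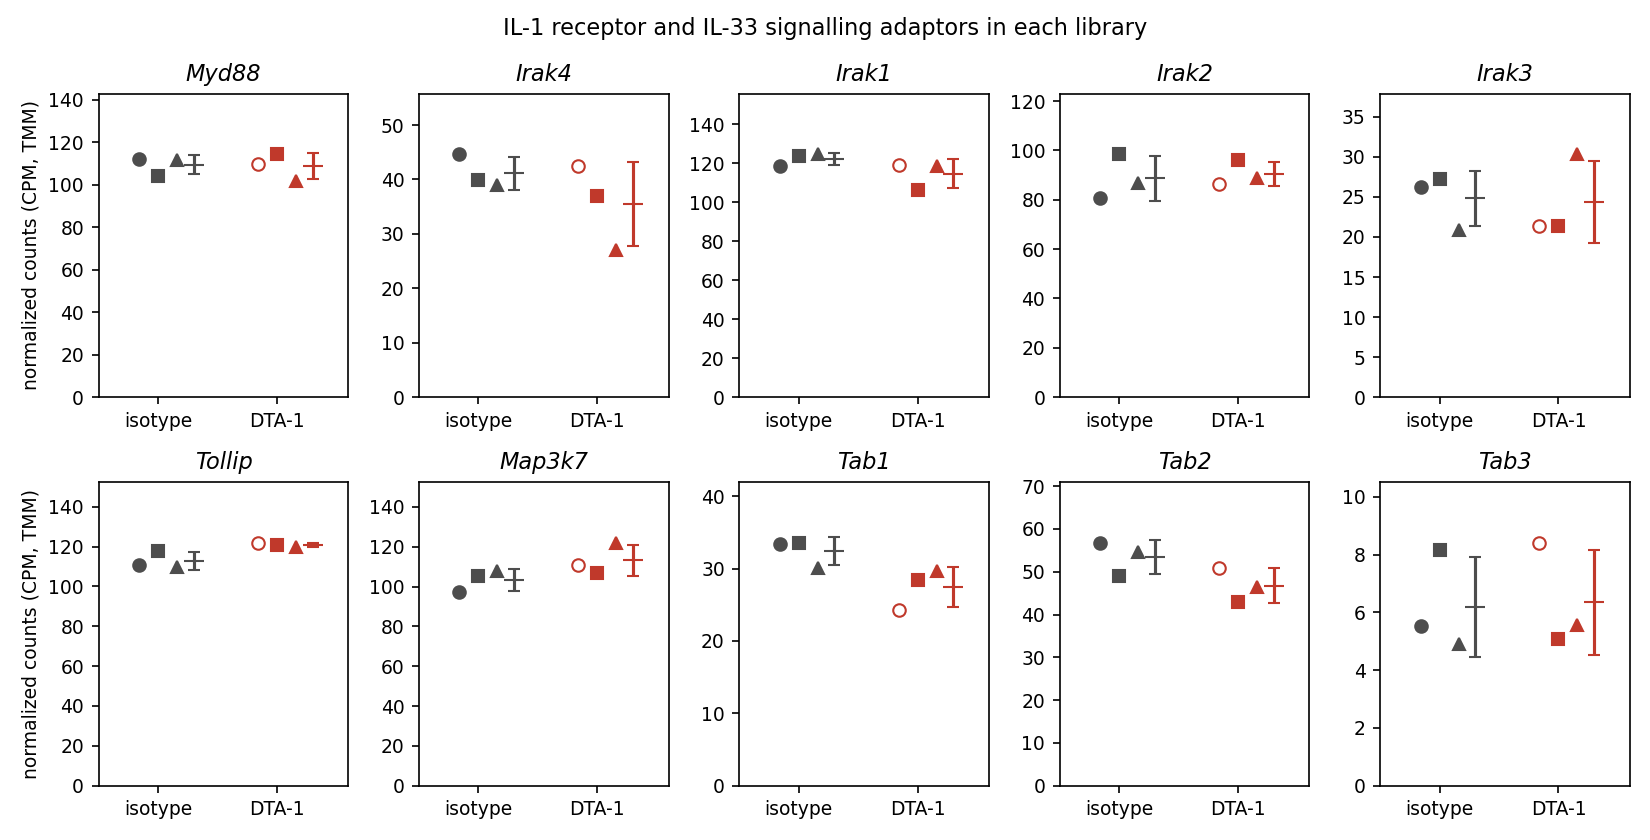
Normalized counts (CPM after TMM) of each adaptor gene in each library, with the axis of every panel starting at 0. Circle, square and triangle are replicates 1, 2 and 3, the open circle is DTA-1 replicate 1, and the bars are mean ± SD (n = 3). The groups are apart for Tollip (higher in DTA-1) and Tab1 (lower in DTA-1), and DTA-1 replicate 3 has the lowest Irak4 (27.1) and the highest Irak3 (30.3).

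A gene was called differentially expressed where edgeR's adjusted p was below 0.05 and the fold change reached 1.5. By this criterion 0 of the 10 adaptor genes and 0.0% of the 14361 genes tested were called. None of the adaptors had an unadjusted p under 0.05, beside 7.22% of all genes, or 2.35% once the 1.5-fold limit was added. DESeq2's Wald test called 0 of the adaptors and 0.099% of the genes it tested, and at an unadjusted p it gave 0 adaptors and 4.88% of genes. The groups were apart in 2 of the 10 adaptors, beside 11.3% of all genes. These were Tollip (higher, as in 5.26% of all genes) and Tab1 (lower, as in 6.03%). Without DTA-1 replicate 1 edgeR called 0 of the 10 adaptors and 0.744% of 14911 genes. At an unadjusted p under 0.05 there were then 2, Irak4 and Tab2, beside 14.0% of all genes.
The precision was sufficient to bound most of the changes. For 9 of the 10 genes the 95% interval of the fold change lay within 1.5-fold in both directions, as it did for 58.9% of all genes tested, and Tab3 was the exception. Without DTA-1 replicate 1 this held for 8 of 10, beside 52.7% of all genes, and the lower bound for Irak4 then passed 1.5-fold. The median log2 fold change of the 10 genes was −0.02 against −0.008 over all genes tested. It was above 0 in 4 of them (48.1% of all genes) and below 0 in 6 (51.9%), and their median absolute log2 fold change was 0.10 against 0.12. Without DTA-1 replicate 1 the medians were −0.07 for the adaptors and −0.015 for all genes. The summed normalized counts of the 10 genes were 686 to 707 in isotype and 679 to 696 in DTA-1.

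**Figure D3:**
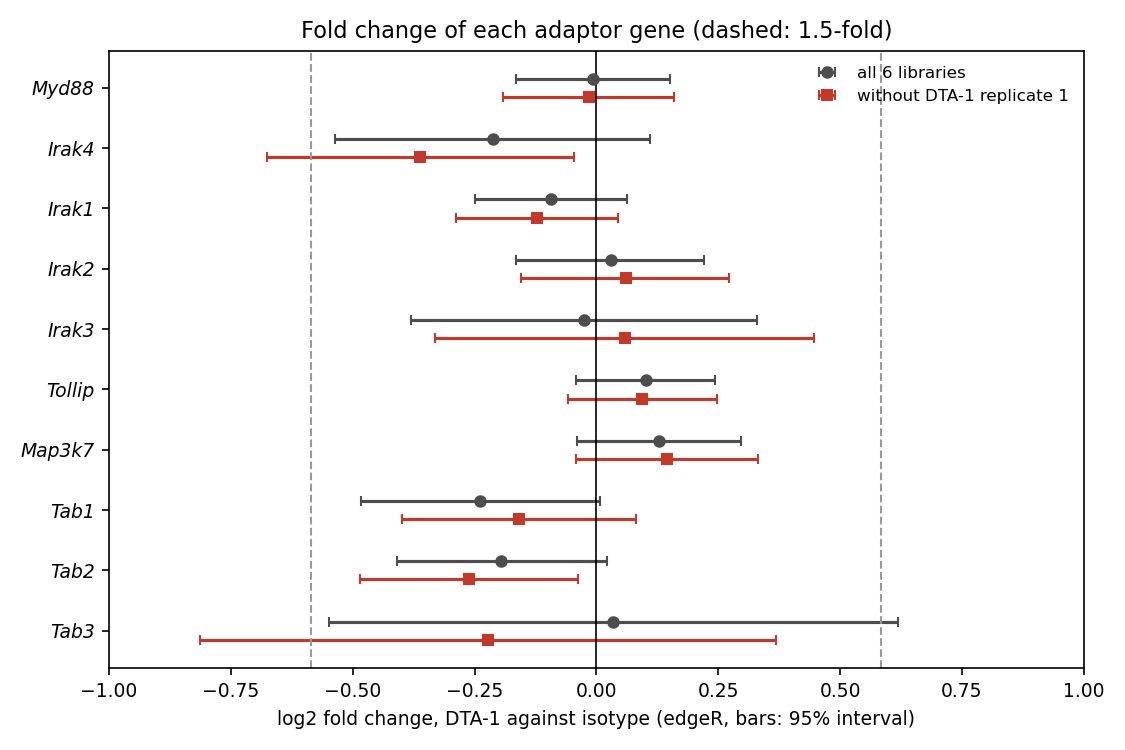
Log2 fold change of each adaptor gene, DTA-1 against isotype, from edgeR fits across all genes. Grey circles use all 6 libraries, red squares leave out DTA-1 replicate 1, bars are 95% intervals and dashed lines mark 1.5-fold. With all libraries only the interval of Tab3 passes a dashed line, and without DTA-1 replicate 1 those of Tab3 and Irak4 do.

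The surroundings of the adaptors were taken from a list of 43 other genes of IL-1 family signalling. Of these, edgeR tested 35 and DESeq2's Wald test 42. None was differentially expressed with all libraries by either method. At an unadjusted p under 0.05 there were 6 of 35 by edgeR and 6 of 42 by DESeq2's Wald test. Of all genes tested by each, 7.22% and 4.88% were under this limit. Of the 35, 29 had a log2 fold change above 0 and 6 below it, beside 48.1% and 51.9% of all genes, and the median was 0.10. Without DTA-1 replicate 1, 4 of 37 were differentially expressed, all higher, beside 0.583% of all genes called higher and 0.161% called lower. These were the decoy receptor gene Il1r2 and the feedback inhibitor genes Nfkbia, Tnfaip3 and Tnip1. Since the library left out was picked from the same counts, these calls and their p-values are a description. Nfkbia, Tnfaip3 and Tnip1 encode proteins that restrain NF-κB, and Il1r2 a receptor that binds IL-1 without signalling.
Nfkbia, which encodes the NF-κB inhibitor IκBα, had 102, 88.5 and 84.4 normalized counts in isotype, 87.3 in DTA-1 replicate 1, and 214.5 and 202 in DTA-1 replicates 2 and 3. With all libraries the log2 fold change stood at 0.88, with an edgeR adjusted p of 0.657, and without DTA-1 replicate 1 at 1.19, with an edgeR adjusted p of 0.000115.
Il1r2 had 59.9, 63.7 and 54.1 normalized counts in isotype and 57.5, 134 and 134 in DTA-1. Its log2 fold change was 0.87 over all libraries and 1.17 over the remaining 5 (edgeR adjusted p = 0.647 and 0.000115). Tnip1, an A20-binding inhibitor gene, had log2 fold changes of 0.49 and 0.66 (edgeR adjusted p = 0.627 and 0.00564), and Tnfaip3, which encodes A20, 0.51 and 0.71 (edgeR adjusted p = 0.627 and 0.00925). For these 4 genes the adjusted p reached 0.999 in at least one of the alternative settings. The same DTA-1 replicates 2 and 3 that held these higher values also held the higher sums of the mast cell list, 44.4 and 32.2, although the sort had removed FCεRI+ cells. The part of mast cells in the values was not tested. In these libraries no adaptor gene was as far from its isotype mean as Nfkbia or Il1r2, and the farthest was Irak4 in DTA-1 replicate 3, at −0.60 on the log2 scale.

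Within the roles, 0 genes passed the test with all libraries. Among the ligands Il33 was the 1 gene of 5 tested, at 0.275 ± 0.185 and 0.352 ± 0.276 normalized counts, and Il18 had the highest level per kilobase at 0.135. Among the receptors Il1rl1 had 1178 ± 91.8 and 1110 ± 152 normalized counts (log2 fold change −0.09, edgeR adjusted p = 0.880). Without DTA-1 replicate 1 it had a log2 fold change of −0.205 (95% interval −0.354 to −0.057), with an unadjusted p of 0.0118 and an edgeR adjusted p of 0.195. Il1rap had 11.6 ± 3.35 and 12.2 ± 3.22. The groups overlapped for both chains of the IL-33 receptor. Of the 9 tested adaptors and ubiquitin enzymes, Sqstm1, the autophagy receptor p62, was highest per kilobase at 188, and Peli1, a ubiquitin ligase of IRAK proteins, had the smallest p, with 103.5 ± 2.80 and 111 ± 1.40 normalized counts (log2 fold change 0.10, edgeR adjusted p = 0.771, and 0.09 without DTA-1 replicate 1). Of the 12 downstream kinases Map2k3 was highest at 99.5 per kilobase, and Map2k6, which like Map2k3 activates p38, had the smallest p, with 16.8 ± 0.648 and 21.2 ± 3.39 normalized counts (log2 fold change 0.33, edgeR adjusted p = 0.657, and 0.42 without DTA-1 replicate 1, edgeR adjusted p = 0.215). Of the 35 genes, Traf6, Peli1, Map2k6 and Zc3h12a had every DTA-1 library above every isotype library, as did 5.26% of all genes, and 0 had every DTA-1 library below, as did 6.03%.

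**Figure D4:**
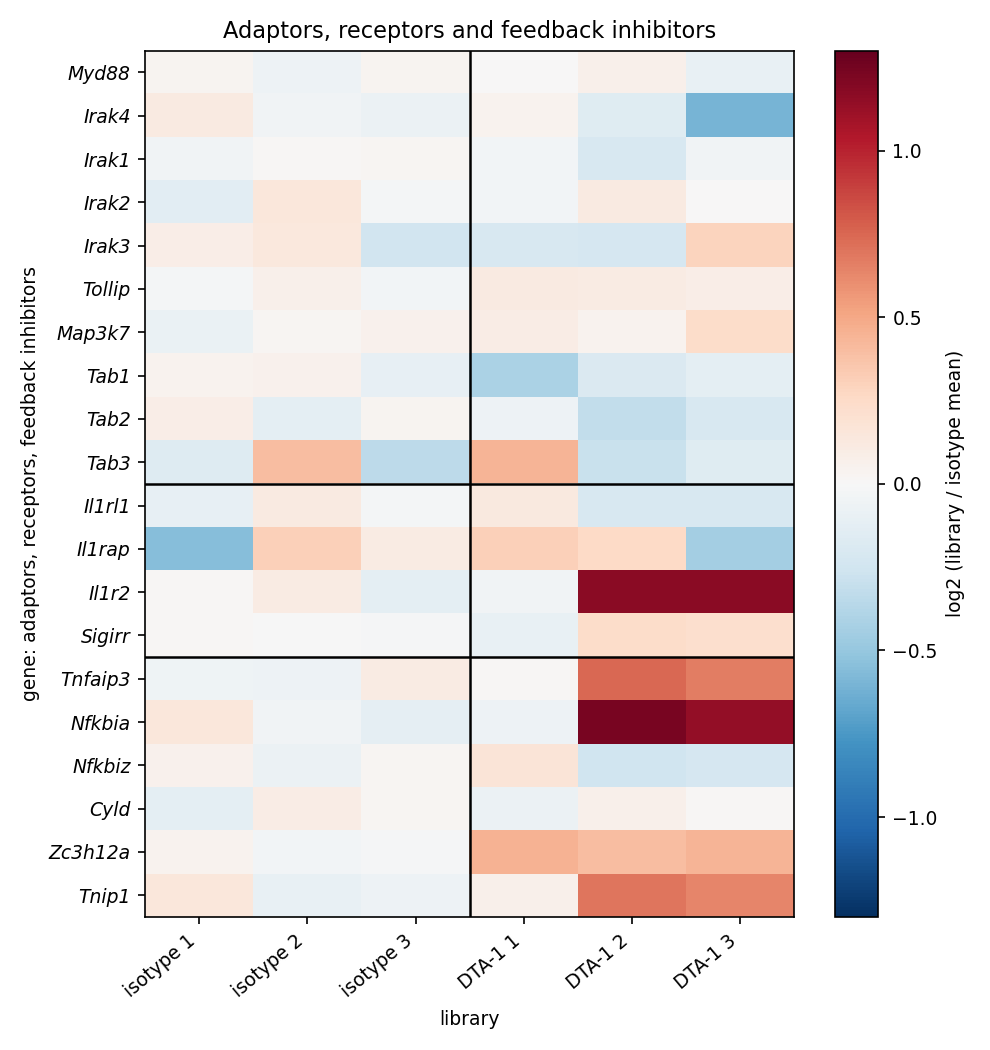
Log2 of each library's normalized count over the isotype mean for the 10 adaptors (top block), 4 receptors (middle) and 6 feedback inhibitors (bottom), with isotype libraries left of the vertical line. Nfkbia and Il1r2 are darkest, above 1 in DTA-1 replicates 2 and 3, followed by Tnfaip3 and Tnip1, and all 4 are pale in DTA-1 replicate 1. Among the adaptors the darkest cell is Irak4 in DTA-1 replicate 3 at −0.60.

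NF-κB is the factor that the TAK1 complex and GITR both lead to, so the promoters were searched for its consensus site (the κB site) on both strands. RefSeq promoters (GRCm38.p6, 250 bases before to 50 after the start) were matched for 9 of the 10 adaptors, and a match was found for 2 of them, Irak1 and Map3k7. Of all genes with an entry there, 9.55% held a match. Of 38 other pathway genes with an entry, 7 held a match. Of those called without DTA-1 replicate 1, Nfkbia, Tnfaip3 and Tnip1 held a match and Il1r2 held none. The windows of the Irak1 and Map3k7 matches are shown from the strand of the gene with the match in capitals. Beside them is that of Nfkbia, which was picked because its values in these data stood apart from those of the adaptors.
Map3k7: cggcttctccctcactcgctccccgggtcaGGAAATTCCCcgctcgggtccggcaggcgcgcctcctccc
Nfkbia: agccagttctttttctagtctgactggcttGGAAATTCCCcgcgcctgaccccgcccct
Irak1: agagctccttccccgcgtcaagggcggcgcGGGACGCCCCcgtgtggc
The Map3k7 window (chr4:31963985-31964054, plus strand) has its match 92 bases before the start, and the Nfkbia window (chr12:55492648-55492706, minus strand) 29 bases before it. Both matches have the same 10 letters. Leaving out DTA-1 replicate 1, Map3k7 had a log2 fold change of 0.14 and Nfkbia one of 1.19. The Irak1 window (chrX:74023922-74023969, minus strand) has its match 18 bases before the start, where the letters match on both strands. Such a match is a description of the sequence and does not show that the factor binds there. The 12 promoter entries of the adaptors had a median of 22.0 CpG in 300 bases, against 7.0 over all promoters. The latter include promoters of genes not tested here, and whether the difference is particular to the adaptors was not examined. An entry of Tab2 had 2 CpG and an entry of Irak3 had 8, and the entries of Irak1 overlap almost fully. GC content of the entries ran from 38.7% to 78.0%.

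**Figure D5:**
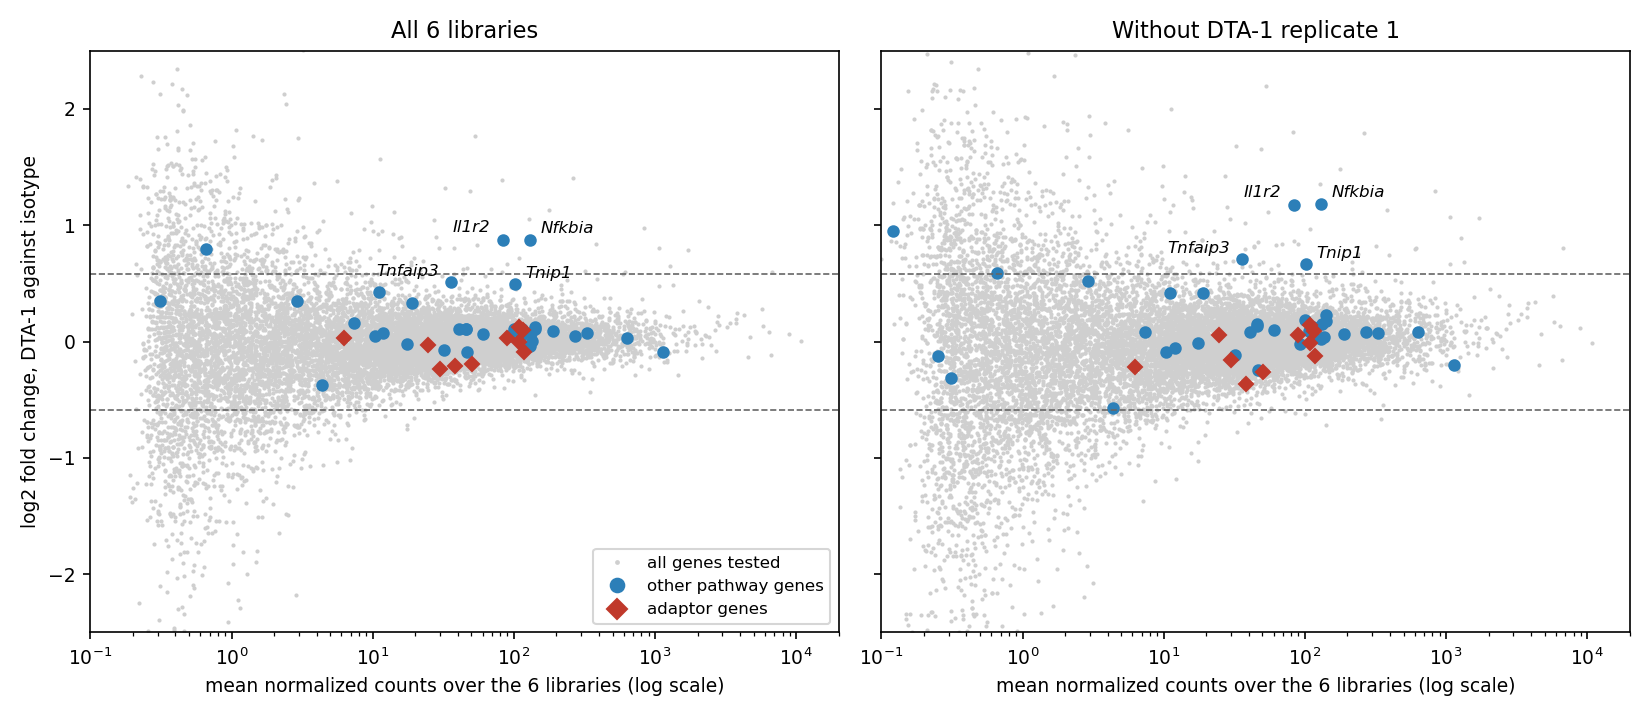
Log2 fold change (DTA-1 against isotype) against mean normalized counts (log axis) for all genes tested (grey), the 10 adaptor genes (red diamonds) and the other genes of the pathway (blue), with all 6 libraries on the left and without DTA-1 replicate 1 on the right. Dashed lines mark 1.5-fold, and genes beyond the axes are not drawn. All adaptor genes lie between the dashed lines in both panels, while Il1r2, Nfkbia, Tnfaip3 and Tnip1 lie above the upper line on the right.

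Tab3 had the widest range of the 10 genes, 0.78 on the log2 scale over the 6 libraries. The genes whose pattern was most like it were sought among 8723 genes with a mean of at least 10 normalized counts, by the root mean square difference of centred log2 values. They were Pcgf6 (0.102), Ankrd49 (0.106), Ubxn7 (0.116), Vwa8 (0.130) and Zfp61 (0.131). Pcgf6, a Polycomb group gene, had 15.1, 19.2 and 13.5 normalized counts in isotype and 20.5, 14.5 and 15.2 in DTA-1. All 5 were highest in isotype replicate 2 and DTA-1 replicate 1, the libraries in which Tab3 was highest. That follows from how they were picked and is no separate observation. The points compared come from the same 6 libraries, so the likeness is a description.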

How the data were processed

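RNA from sorted ILC2s was sequenced, with 3 libraries in each of 2 groups. Per the labels the processing used bcl2fastq 2.17.1.14, STAR 2.5.3a, Partek and mm10; the annotation and strand setting are not given in the sources used here. The deposited values are expected counts, estimated reads per gene without normalization, and 79.7% of them were whole numbers. They were rounded before fitting. Gene starts and ends were those of GENCODE mouse release 21 for 47741 of 49719 shared symbols, 9 of the 10 adaptors included, once the end was read as the last base. In R 4.3.3, edgeR 4.0.16 (filterByExpr, TMM, robust quasi-likelihood F test, Benjamini-Hochberg adjustment over 14361 genes) compared DTA-1 with isotype without covariates, a design assumed here because the sources name no model. A call needed an adjusted p under 0.05 and 1.5-fold. The standard error of a change was its size divided by the root of F, and 95% intervals used the same error. No exact permutation test was made, since 3 libraries in each group cannot take its p below 0.05.

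Alternatives were DESeq2 1.42.0 (size factors, Wald test), total counts, limma 3.58.1 (trend, prior count of 2), other filters, a replicate block, leaving out each library, an unadjusted p and no fold limit. The members, gene lists and tests were chosen with earlier results of these data known. Named genes were all members, the pathway genes called with or without DTA-1 replicate 1, in each role the one with the highest level per kilobase and the one with the smallest p, and the 5 genes most like the member of the widest range. Sigirr, Il18rap, Il1rap, Traf6 and Zc3h12a fall outside this rule and were chosen after their values were seen. The edgeR script was first run on simulated counts of known change. At these depths Tab3, with 158 to 286 counts, was measured least precisely; intervals cover the spread between libraries only. One marker list is not reported here.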

Additional observations from a re-analysis of the deposited data

How the results depend on the processing

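No adaptor gene was called under any of the alternatives, which gave adjusted p values no lower than 0.277. At an unadjusted edgeR p under 0.05 there were 2 adaptors with total counts and 2 without DTA-1 replicate 1. There was 1 with the replicate block, and 1 each without isotype replicate 2, isotype replicate 3 or DTA-1 replicate 3. Among all genes the share was taken only without DTA-1 replicate 1, at 14.0%. Of 130 fold changes of the adaptors under 13 alternatives, 117 kept their direction and 13 turned. Leaving out one library at a time gave log2 fold changes of −0.041 to 0.037 for Myd88, −0.032 to 0.110 for Irak2, −0.215 to 0.067 for Irak3 and −0.222 to 0.283 for Tab3, and Irak2 was at −0.009 with total counts in place of TMM. The directions of Irak4, Irak1, Tollip, Map3k7, Tab1 and Tab2 did not turn under these alternatives. The median log2 fold change of the adaptors ran from −0.095, without isotype replicate 3, to 0.003 when each library was left out. Total counts moved the median of all genes to −0.04.
The count of differentially expressed genes over the whole table, 0 in the comparison as reported, was 0 to 111 with one library left out, the 111 arising without DTA-1 replicate 1. It was 25 by DESeq2's Wald test, 2 with every gene of at least 1 count, 1 with the replicate block and 337 where the p was left unadjusted and the 1.5-fold limit kept. For the other pathway genes it was 0 to 4 with one library left out and 2 with the p unadjusted and that limit kept. The cause was not tested. The sample titles give equal replicate numbers in both groups and state no pairing. Correlations of deviations for equal numbers were −0.007, −0.003 and 0.015, and 2 of 6 libraries correlated best with their own number. With so few libraries these values cannot tell whether the replicates were paired. The replicate block called 0 adaptors. With all libraries the 95% interval of Tab3, the adaptor with the fewest counts, was the one that reached past 1.5-fold.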

Other observations

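Irak1bp1, which encodes an IRAK1-binding protein and was named after its values were seen, had 5.06, 4.93 and 5.22 normalized counts in isotype and 3.72, 4.20 and 3.54 in DTA-1. Every DTA-1 library lay below every isotype library, as in 6.03% of the genes tested. Its log2 fold change of −0.41 had a standard error of 0.21 and an edgeR adjusted p of 0.732 (from 0.516 to 0.999 in the alternative settings), and it was −0.39 without DTA-1 replicate 1. Zc3h12a, which encodes the RNase Regnase-1, was higher in DTA-1 replicate 1 as well as in the other DTA-1 libraries. It had 9.75, 9.21 and 9.33 normalized counts in isotype and 12.9, 12.5 and 12.8 in DTA-1. This is a log2 fold change of 0.43 with an edgeR adjusted p of 0.627 (from 0.259 to 0.999 in the alternative settings), and 0.42 without DTA-1 replicate 1. It differed in this from Nfkbia, Il1r2, Tnfaip3 and Tnip1, for which DTA-1 replicate 1 lay within the isotype range.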
